A study of Mus musculus with 10 samples.

Results

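The genes described here encode the receptor chains through which skin cells read type 2 and itch cytokines, together with 2 of the cytokines. The 10 genes were chosen by symbol: Il4, Il4ra, Il13ra1, Il13ra2, Il2rg, Il31ra, Osmr, Tslp, Crlf2 and Il7r, of 20611 genes listed for each mouse. All 10 passed the filter on low counts and were tested among 14861 genes. Gene expression was measured by mRNA sequencing of whole mouse skin in 5 Klk6+ mice and 5 WT mice, with 3 males and 2 females in each genotype and 1 library per mouse. Klk6+ mice carried a Tetos-Klk6 transgene, for tagged mouse kallikrein-related peptidase 6, and the K5-tTA driver, in which the promoter of bovine keratin 5 directs a transactivator to keratinocytes of the epidermis and to part of the other stratified epithelia; the transactivator works when doxycycline is absent. WT mice were littermates that were wild type or had inherited 1 of these transgenes, which is not expressed alone. Both lines had been backcrossed to C57BL/6. Matings took place on doxycycline. The labels place the return of Klk6+ mice to doxycycline chow at 10 to 11 weeks and the collection of skin at an age of 14 to 16 weeks. This protocol text stands on the WT samples too but names only Klk6+ mice, and the labels name no body site.

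Cytokine receptors of this class are pairs of membrane chains that signal through Janus kinases (JAK) and STAT transcription factors. Interleukin 4 binds IL-4R alpha (Il4ra) paired either with the common gamma chain (Il2rg), mostly on blood-derived cells, or with IL-13R alpha 1 (Il13ra1), which also serves interleukin 13 and is the form found on keratinocytes and fibroblasts. IL-13R alpha 2 (Il13ra2) binds interleukin 13 tightly and is known as a decoy. Interleukin 31, an itch cytokine made by activated T cells, needs IL-31RA (Il31ra) together with the oncostatin M receptor (Osmr), and Osmr also pairs with gp130 (Il6st) to bind oncostatin M. Thymic stromal lymphopoietin (Tslp), an epithelial cytokine, binds its own chain (Crlf2) joined to the interleukin 7 receptor chain (Il7r).

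Each WT library held 32798416 to 41970272 counts and each Klk6+ library 26521019 to 39796511. After scaling, a single count equalled 0.0230 to 0.0373 CPM, the library-scaled count used here for differences between mice. Klk6 itself ranged from 12.7 to 26.5 CPM in WT mice and from 10293 to 14773 CPM in Klk6+ mice. Doxycycline switches this transgene off, so high Klk6 at collection does not match a return to doxycycline weeks earlier, and the order of these steps could not be settled from the labels. A first principal component with 78.3% of the variance separated the genotypes, and on the second (7.85%) Klk6+ 3 and Klk6+ 5 lay at -33.4 and -52.1, while the other Klk6+ libraries lay at 4.32 to 42.2. The values of Il4ra, Il13ra1, Il31ra, Crlf2 and Il7r are also given without both. No pair of libraries within a genotype was a repeat, since the lowest chi-square per degree of freedom was 40.7.

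Of the 10 genes, 6 were higher and 3 were lower in Klk6+ (adjusted p below 0.05), beside 37.7% and 35.1% of all genes tested in these directions. A call in 9 of 10 genes stands against 72.8% of all genes called, and the median log2 fold change was 0.60 for the 10 genes and 0.04 for all genes tested. The levels of the genotypes did not overlap for 5 of the 10 genes, 4 higher and 1 lower in Klk6+, against 57.0% of all genes tested (30.1% higher and 27.0% lower). In a skin where most transcripts differ, the number of calls is thus not far from the background, and what follows is the direction and size of each gene's difference. In whole skin, fewer cells that make a transcript and less RNA per cell cannot be told apart.

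**Figure D1:**
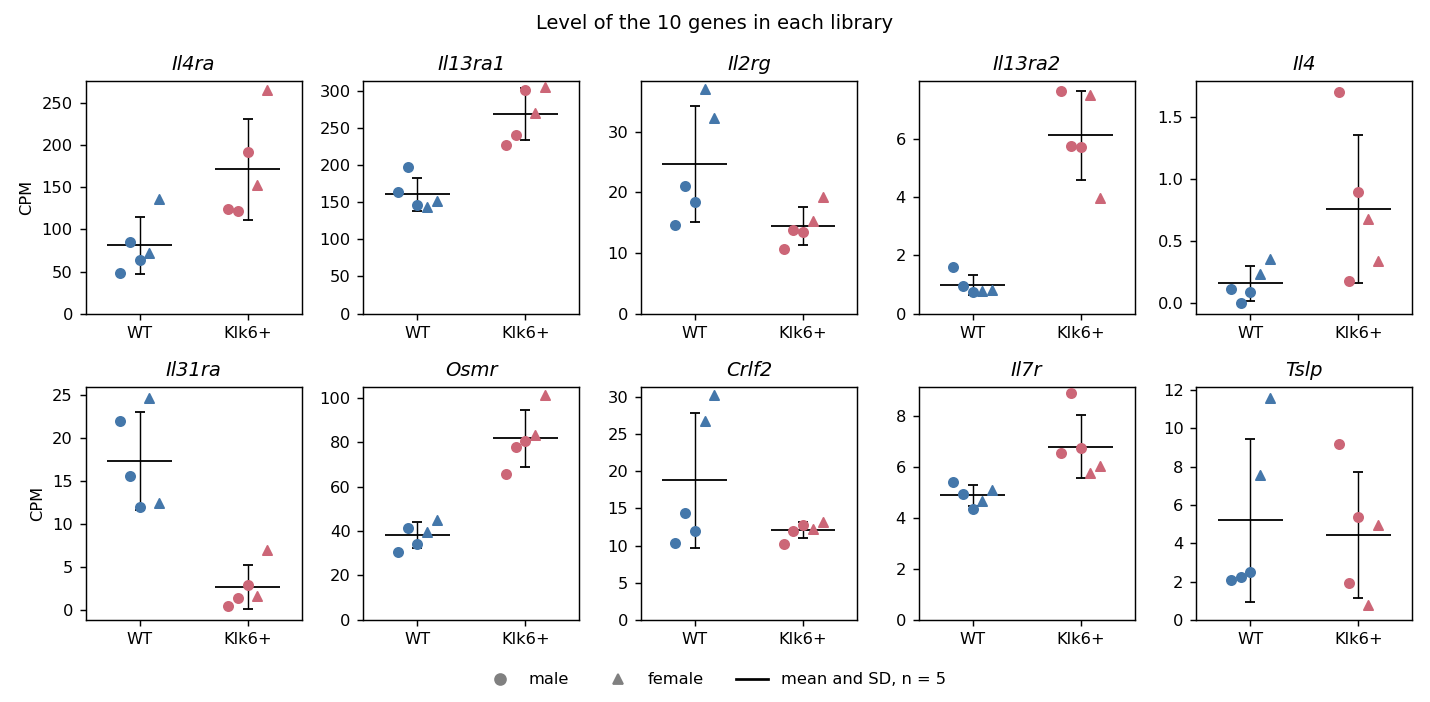
Level of each of the 10 genes in CPM (vertical axes, each on its own linear scale) in the 5 WT and 5 Klk6+ libraries; circles are males, triangles females, and the line and bar are the mean and SD over 5 mice. Il13ra1, Il13ra2, Osmr and Il7r lie higher in every Klk6+ library than in any WT library, Il31ra lies lower, and the WT females stand above the WT males for Tslp, Crlf2 and Il2rg.

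The upstream sequences of Il31ra and Il13ra2 are shown because these genes had the largest log2 fall and rise among the 10. Letters were searched in the 250 bases before each RefSeq start site (GRCm38.p6) for TTCNNNGAA, the spacing bound by most STAT factors, for the STAT6 motif, in which the gap between TTC and GAA is longer by 1 base, and for TGANTCA, an AP-1 site. Each was searched on both strands, reads the same on both, and no matches overlapped. A window was found for 9 of the 10 genes. The part of each window outside the RefSeq gene span is printed, 5′ to 3′ on the gene's strand, with matches in capitals: all 250 bases for Il13ra2 and, for Il31ra, the 180 bases farthest from the start site.
Il31ra, chr13:112580733-112580912, minus strand: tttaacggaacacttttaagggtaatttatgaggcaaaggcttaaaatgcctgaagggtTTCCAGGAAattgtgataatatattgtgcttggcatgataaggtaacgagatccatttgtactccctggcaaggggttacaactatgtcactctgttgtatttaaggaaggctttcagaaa
Il13ra2, chrX:147429193-147429442, minus strand: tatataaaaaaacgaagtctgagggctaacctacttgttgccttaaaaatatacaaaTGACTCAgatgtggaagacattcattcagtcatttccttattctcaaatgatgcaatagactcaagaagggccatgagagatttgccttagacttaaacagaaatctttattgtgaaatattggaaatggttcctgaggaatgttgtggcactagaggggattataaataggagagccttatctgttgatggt
The Il31ra window held 1 match to TTCNNNGAA, at -191 from the start site, and the Il13ra2 window held 1 AP-1 match, at -193. Longer Il31ra models of the GENCODE M21 annotation begin further upstream, so the printed Il31ra stretch lies inside the gene span given below, in an intron of those models. Among the other genes, Il7r held 1 match to TTCNNNGAA at -142 and 1 of the windows of Il4 held a STAT6 match at -167. In GENCODE M21 the Il7r window also lies inside the gene span given below, and each of these windows overlaps an annotated exon of its own gene. By letters alone, TTCNNNGAA was found in 2 of the 9 genes and each of the other motifs in 1, against 7.02% of 32817 windows of this length for TTCNNNGAA, 5.85% for the STAT6 motif and 6.75% for TGANTCA. A match describes the letters and does not show that a factor binds.

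The chains that form the IL-4 and IL-13 receptors of non-immune cells rose. Il13ra1 (chromosome X, 36112110 to 36171259, plus strand, GRCm38) stood at 163, 198, 147, 144 and 151 CPM in WT 1 to 5 and at 227, 240.6, 301, 270.2 and 304 CPM in Klk6+ 1 to 5. Every Klk6+ library was above every WT library, and the log2 fold change was 0.74 ± 0.13 (SE; adjusted p = 0.000363), or 0.56 without Klk6+ 3 and Klk6+ 5 (adjusted p = 0.00434). Il13ra1 was the most abundant of the 10 per unit of transcript length in both genotypes, with a median FPKM of 36.9 in WT and 69.2 in Klk6+. Of the cell types that carry it, keratinocyte markers summed to 5773 to 16293 CPM in WT against 20865 to 31061 in Klk6+ (4 of 7 higher, 1 lower). Most of that rise came from Krt14 (means of 931 and 10052 CPM) and Krt1 (1013 and 6214 CPM), named after their values were seen. The median log2 fold change of the keratinocyte list was 0.60, Krt10 fell (-0.54 ± 0.19), and Trp63 and Dsp were not called. Fibroblast markers summed to 11489 to 40764 CPM in WT against 4445 to 9293 in Klk6+ (6 of 6 lower). The part of these cell types in the rise of Il13ra1 and in those of Il4ra, Il13ra2 and Osmr was not tested.

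Il4ra (chromosome 7, 125552120 to 125579474, plus strand) is shared by both forms of the IL-4 receptor. It stood at 48.1, 84.7, 63.8, 72.2 and 136 CPM in WT and at 124, 122, 192, 153 and 265 CPM in Klk6+. WT 5, a female, reached above the lowest Klk6+ libraries, so the genotypes overlapped. A female held the highest value in each genotype (WT 5 and Klk6+ 5), while the other female of each genotype lay below a male. The log2 fold change was 1.09 ± 0.24 (adjusted p = 0.00219). Klk6+ 3 and Klk6+ 5 held the highest Klk6+ values, and without both it was 0.72 (adjusted p = 0.0246). Exons of Il4ra share up to 571 bases with Gm44876, which cannot be counted apart in libraries that do not mark strand.

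The common gamma chain gene moved the other way. Il2rg (chromosome X, 101264378 to 101268255, minus strand) stood at 14.6, 21.0, 18.5, 37.0 and 32.3 CPM in WT and at 10.7, 13.8, 13.4, 15.3 and 19.3 CPM in Klk6+. Its log2 fold change was -0.71 ± 0.15, a fall (adjusted p = 0.00154), with overlap between the genotypes and the 2 WT females above all other libraries. Il2rg marks lymphocytes and other blood-derived cells. T-cell markers were lower in 6 of 8 tested and higher in none, and their summed level was 25.9 to 41.8 CPM in WT against 13.6 to 18.2 in Klk6+. Markers of macrophages and monocytes were lower in 7 of 8 and higher in 1, at 1017 to 4469 CPM against 359 to 1312. The part of these cells in the fall of Il2rg was not tested. Exons of Il2rg share up to 185 bases with Gm20489.

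The decoy receptor gene had the largest rise of the receptor chains. Il13ra2 (chromosome X, 147383476 to 147429192, minus strand) stood at 1.61, 0.963, 0.748, 0.790 and 0.806 CPM in WT and at 7.62, 5.75, 5.71, 7.50 and 3.95 CPM in Klk6+. The lowest Klk6+ library was above the highest WT library, WT 1, and the log2 fold change was 2.64 ± 0.27 (adjusted p = 1.11e-05). Its level was far below that of Il13ra1, at a median FPKM of 0.353 in WT and 2.40 in Klk6+. Per unit of length the ratio of Il13ra2 to Il13ra1 was 0.00831 to 0.0174 in WT and 0.0224 to 0.0582 in Klk6+, without overlap.

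The other chain ratios were compared in the same way, from FPKM within each library and with no test. Il4ra to Il2rg, the pair that makes the IL-4 receptor of blood-derived cells, stood at 0.583 to 1.26 in WT and 2.63 to 4.28 in Klk6+, so that Il4ra led in every Klk6+ library. Keratinocytes and fibroblasts also carry Il4ra, so this whole-skin ratio does not give the balance of the chains on blood-derived cells. Il4ra to Il13ra1 stood at 0.212 to 0.649 in WT and 0.363 to 0.626 in Klk6+, with overlap. Il13ra1 was thus the more abundant chain of that pair in all 10 libraries.

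**Figure D2:**
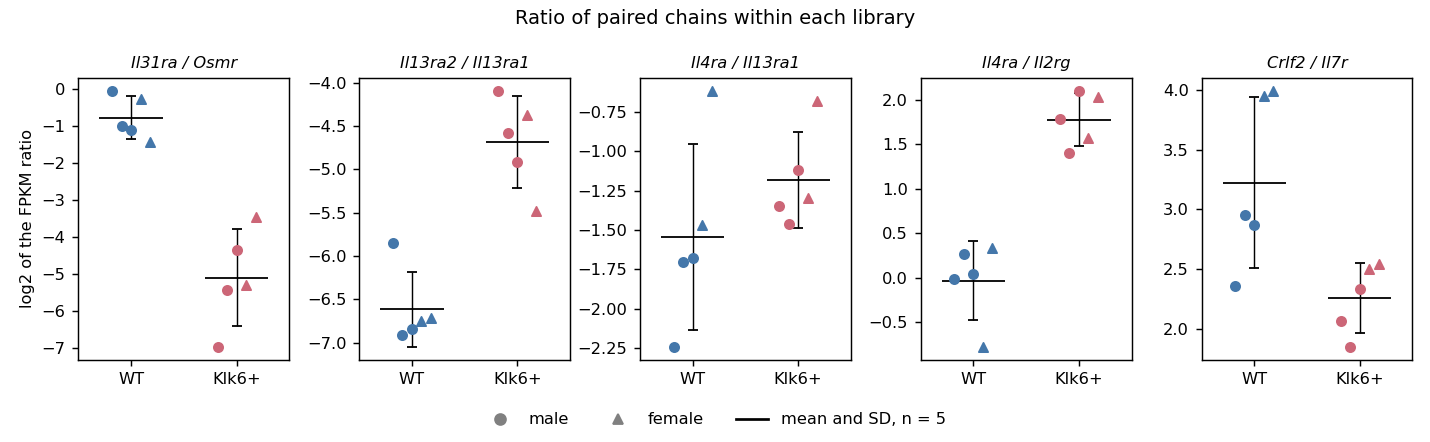
Log2 of the FPKM ratio of paired receptor chains in each library (vertical axes, a separate scale per pair, not starting at 0), by genotype; circles are males, triangles females, and the line and bar are the mean and SD over 5 mice. The genotypes do not overlap for Il31ra to Osmr (lower in Klk6+), Il13ra2 to Il13ra1 and Il4ra to Il2rg (both higher), and overlap for Il4ra to Il13ra1 and Crlf2 to Il7r.

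The interleukin 4 gene was near the limit of detection. Il4 (chromosome 11, 53602982 to 53618669, minus strand) had 5, 0, 3, 8 and 12 counts in WT and 60, 5, 34, 22 and 9 counts in Klk6+. Klk6+ 2 and Klk6+ 5 lay within the WT range, and the 2 highest Klk6+ libraries were males. The summed counts gave a Klk6+ to WT ratio of 5.36 (95% exact counting interval 3.54 to 8.38, which covers counting error only), and the fitted log2 fold change was 2.36 ± 0.79 (adjusted p = 0.0205). Il4 passed the filter mainly through the Klk6+ libraries, and its call was lost without WT 1 (adjusted p = 0.0551) or WT 3 (adjusted p = 0.0581). Mast cells and basophils can make interleukin 4: mast-cell markers were higher in 7 of 8 tested, at a summed 187 to 286 CPM in WT against 322 to 545 in Klk6+, and 1 of 2 basophil markers was higher, at 0.735 to 1.34 CPM against 1.36 to 3.94. Their part in the rise of Il4 was not tested.

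The chains of the interleukin 31 receptor moved in opposite directions. Il31ra (chromosome 13, 112519898 to 112594360, minus strand) stood at 22.0, 15.6, 11.9, 24.7 and 12.5 CPM in WT and at 0.397, 1.36, 2.95, 1.61 and 6.97 CPM in Klk6+. No Klk6+ library reached the lowest WT library, and the log2 fold change was -2.87 ± 0.57 (adjusted p = 0.00111). The Klk6+ libraries spread widely, with Klk6+ 5 highest and Klk6+ 1 lowest; without Klk6+ 5 the value was -3.49 (adjusted p = 0.000246), and without both Klk6+ 3 and Klk6+ 5 it was -4.03 (adjusted p = 0.000104). Exons of Il31ra share up to 45 bases with Gm3226.

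Osmr (chromosome 15, 6813577 to 6874969, minus strand) stood at 30.5, 41.4, 34.2, 39.4 and 45.0 CPM in WT and at 65.8, 77.9, 80.4, 83.2 and 101 CPM in Klk6+. All Klk6+ libraries were above all WT libraries, and the spread within each genotype was small. The log2 fold change was 1.10 ± 0.11 (adjusted p = 8.8e-06). In FPKM, Il31ra stood at 0.371 to 0.964 of Osmr in WT and at 0.00805 to 0.0920 of it in Klk6+, so the receptor-specific chain was the scarcer of the pair in every library and more so in Klk6+.

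Il31ra is transcribed in keratinocytes, in sensory neurons and in cells of the macrophage and dendritic lineages. Markers of Schwann cells and sensory neurons were lower in 4 of 5 tested and summed to 397 to 662 CPM in WT against 87.9 to 175 in Klk6+, and the fifth was higher. The sensory neuron genes Scn10a and Tac1 had too few counts to be tested. Dendritic and Langerhans cell markers were lower in 6 of 7, at 65.6 to 93.0 CPM against 18.7 to 25.8, while keratinocyte markers were mostly higher, as given above. Skeletal muscle, which takes up part of a whole-skin sample, had 8 of 8 markers lower, at 41689 to 59281 CPM against 3346 to 6419. The part of these cell types in the fall of Il31ra was not tested.

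Over the 13848 genes that averaged 1 CPM or more, the centred log2 CPM profiles nearest to that of Il31ra over the 10 libraries were those of Wfdc3, Adcy1 and Pdzrn4, at root mean square distances of 0.483, 0.531 and 0.535 log2 units. Those nearest to Osmr were Calr, Pdia4 and Impdh1, at 0.087, 0.107 and 0.115. Likeness here is set mostly by the genotype difference, and the distances are descriptions.

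Of the TSLP receptor, the TSLP-specific chain was lower in Klk6+ and the shared chain higher. Crlf2 (chromosome 5, 109554709 to 109558993, minus strand) stood at 10.4, 14.3, 12.0, 26.8 and 30.3 CPM in WT and at 10.3, 12.0, 12.7, 12.3 and 13.1 CPM in Klk6+. The 3 WT males lay within or near the Klk6+ range and the 2 WT females lay above every other library. Crlf2 fell slightly, with a log2 fold change of -0.51 ± 0.21 (adjusted p = 0.0461). This call was lost without any one of 6 of the 10 libraries: WT 2 (adjusted p = 0.0779), WT 4 (0.0921), WT 5 (0.101), Klk6+ 1 (0.0768), Klk6+ 4 (0.0917) or Klk6+ 5 (0.0875). It was also lost with no sex term (adjusted p = 0.0649) and without both Klk6+ 3 and Klk6+ 5 (adjusted p = 0.0623).

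Il7r (chromosome 15, 9505788 to 9530176, minus strand), a chain shared with the interleukin 7 receptor and carried by T cells and innate lymphoid cells, stood at 5.42, 4.96, 4.37, 4.65 and 5.11 CPM in WT and at 6.55, 8.92, 6.77, 5.77 and 6.04 CPM in Klk6+. The genotypes did not overlap but lay close, and Klk6+ 2 was the highest. The log2 fold change was 0.47 ± 0.15 (adjusted p = 0.0145), with adjusted p = 0.0521 without Klk6+ 3 and Klk6+ 5. This rise stood beside the lower T-cell markers given above. In FPKM, Crlf2 was the more abundant chain in all libraries, at 5.13 to 15.9 times Il7r in WT and 3.60 to 5.81 times in Klk6+, and its highest ratios were those of the WT females.

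The ligand gene Tslp, on chromosome 18, stood at 2.07, 2.21, 2.51, 7.55 and 11.6 CPM in WT and at 9.21, 1.92, 5.37, 0.772 and 4.96 CPM in Klk6+. The highest WT values were those of the 2 females, while the Klk6+ libraries were spread within both sexes. Over all libraries the log2 fold change was 0.11 ± 0.74 (adjusted p = 0.897). The sign of this value changed with the fit, from -0.35 to 0.62. This standard error is larger than the differences called for Il7r and Crlf2, so a difference of that size was not detectable for Tslp.

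**Figure D3:**
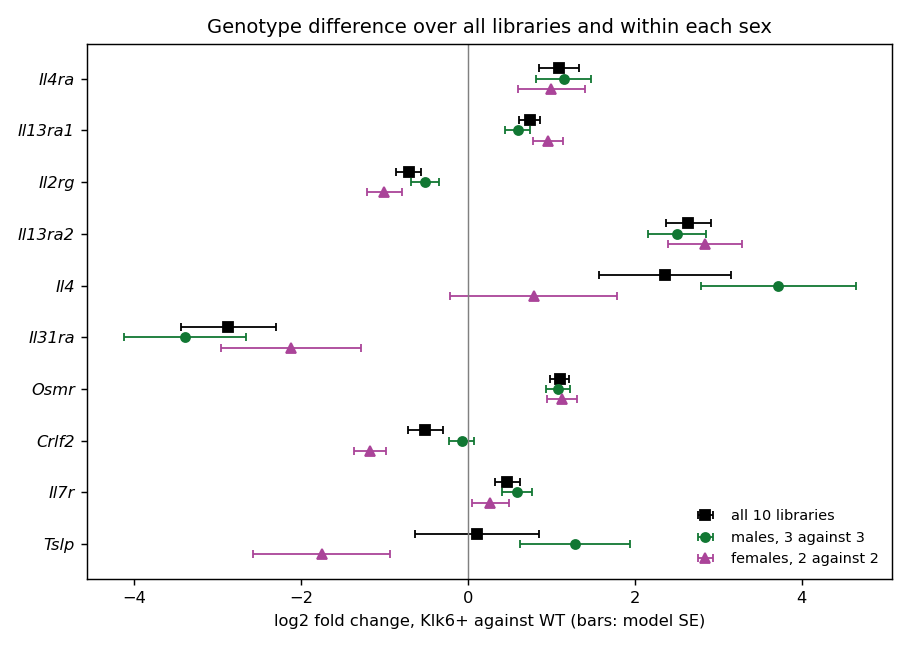
Log2 fold change of Klk6+ against WT for each gene (horizontal axis; bars are the model SE) over all 10 libraries, within males and within females. Il13ra1, Il13ra2 and Osmr lie to the right and Il31ra and Il2rg to the left in each comparison, while Tslp lies on opposite sides in males (1.28) and females (-1.75).

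Within males 6 of the genes were higher and 2 lower in Klk6+, and within females 3 were higher and 2 lower. Of all genes tested, 64.4% were called in males (33.4% higher, 31.0% lower) and 59.6% in females (31.2% higher, 28.4% lower), and the female comparison rests on 2 mice against 2. Il13ra1, Il13ra2 and Osmr were called higher in each sex and Il2rg lower in each sex. The log2 fold changes were 2.51 ± 0.35 in males and 2.84 ± 0.44 in females for Il13ra2, and 1.08 ± 0.14 and 1.13 ± 0.18 for Osmr. For Il4 they were 3.72 ± 0.93 in males (adjusted p = 0.0068) and 0.79 ± 1.0 in females (adjusted p = 0.519), with an interaction of -2.93 ± 1.39 (adjusted p = 0.565). For Il31ra they were -3.39 ± 0.73 in males (adjusted p = 0.00307) and -2.12 ± 0.84 in females (adjusted p = 0.0535). For Il4ra they were 1.15 ± 0.33 (adjusted p = 0.0127) and 1.0 ± 0.40 (adjusted p = 0.0552). In females DESeq2 called both, with adjusted p = 0.0163 for Il31ra and 0.0403 for Il4ra.

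Crlf2 and Tslp had the smallest p-values of the 10 for a difference of the genotype effect between the sexes. Crlf2 fell in females, with a log2 fold change of -1.17 ± 0.19 (adjusted p = 0.000651), and in males its log2 fold change was -0.07 ± 0.15 (adjusted p = 0.696). For Tslp the values were -1.75 ± 0.82 in females (adjusted p = 0.0935) and 1.28 ± 0.66 in males (adjusted p = 0.118), of which DESeq2 called the female value (-1.76, adjusted p = 0.0434). The difference of the genotype effect between the sexes was tested directly as an interaction. It was -1.10 ± 0.24 for Crlf2 (unadjusted p = 0.00121, adjusted p = 0.237) and -3.03 ± 1.06 for Tslp (unadjusted p = 0.0184, adjusted p = 0.408), so neither passed after adjustment in the edgeR fit. DESeq2 called Crlf2 (-1.11, adjusted p = 0.00914) and limma-voom did not (-1.11, adjusted p = 0.264).

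No gene of the 14861 passed the interaction test in edgeR, although 1410 (9.49%) had an unadjusted p below 0.05; limma-voom called 0 and DESeq2 called 263. The sex term of the genotype fit called 6 genes (0.0404%), none of them among the 10, and DESeq2 called 938, Crlf2 and Il2rg among them. In the edgeR fit its unadjusted p was 0.000824 for Il2rg, 0.00738 for Crlf2, 0.0268 for Osmr and 0.0343 for Il4ra. The share of all genes with such unadjusted values was not counted, so these have no background beside them. Among the X-linked genes, the female to male log2 difference was 0.70 ± 0.15 for Il2rg (adjusted p = 0.106), -0.01 ± 0.13 for Il13ra1 (adjusted p = 0.973) and -0.30 ± 0.26 for Il13ra2 (adjusted p = 0.612). Il2rg was called without Klk6+ 3 (adjusted p = 0.0444) and without Klk6+ 4 (adjusted p = 0.0251), and DESeq2 gave adjusted p = 0.00366. In WT, macrophage and monocyte markers summed to 1017 to 1784 CPM in males against 3713 to 4469 in females. These females were also the WT libraries in which Crlf2, Il2rg and Tslp were high. Among other marker sums that parted the WT sexes, mast-cell markers stood at 187 to 203 CPM in males against 268 to 286 in females. Keratinocyte markers ran the other way, at 11037 to 16293 CPM in males against 5773 to 8933 in females. So did fibroblast markers, at 21848 to 40764 against 11489 to 11876. The part of any of these cells was not tested.

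**Figure D4:**
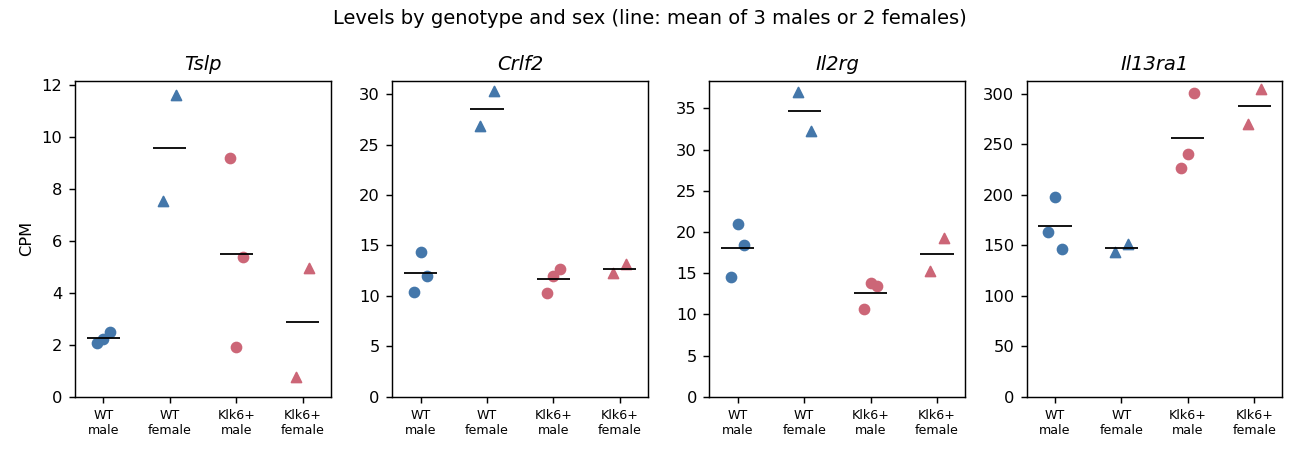
Levels in CPM (vertical axes from 0) of Tslp, Crlf2, Il2rg and, as an X-linked gene without such a pattern, Il13ra1, by genotype and sex; points are libraries and lines are means of 3 males or 2 females. The WT females stand above every other library for Crlf2 (26.8 and 30.3 CPM) and Il2rg (37.0 and 32.3 CPM).

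Transcripts of cytokines that act through or beside these receptors were counted next. Of 11 ligand genes listed, 6 had enough counts, and 5 of these were higher and none lower in Klk6+. Their median log2 fold change was 3.47, beside 0.04 for all genes tested. The list was chosen with earlier results of these data known, so its median is a description and no evidence of enrichment. Areg, an epidermal growth factor family member made in type 2 responses, rose by 4.42 ± 0.27 on the log2 scale, the alarmin gene Il33 by 3.14 ± 0.28 (from 41.4 ± 3.85 to 365 ± 148 CPM, SD, n = 5 each) and Lif by 2.38 ± 0.22. Osm, which encodes oncostatin M, the other ligand of the Osmr chain, rose by 3.79 ± 0.43, from 0.818 ± 0.329 to 11.3 ± 5.74 CPM (n = 5 each); it and Il6, which rose by 4.43 ± 0.69, were named after their values were seen. Il7, the ligand shared by Il7r and Il2rg, had a log2 fold change of 0.41 ± 0.30 (adjusted p = 0.243).

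The other ligand genes listed stayed scarce and had too few counts to be tested. Il31 and Il9 had 0 counts in all 10 libraries, which allows up to 3 counts in their sum. Il13 gave 1, 0, 6, 3 and 0 counts in WT 1 to 5 and 9, 8, 10, 16 and 2 in Klk6+ 1 to 5, a ratio of summed counts of 5.20 (95% exact counting interval 2.58 to 11.6), with overlap between the genotypes. Il25 gave 9, 5, 4, 8 and 0 counts in WT 1 to 5 and 0, 0, 0, 0 and 1 in Klk6+ 1 to 5. Its sums of 26 and 1 gave a ratio of 0.0444 (0.00108 to 0.270), again with overlap, since WT 5 had 0 counts. Both intervals cover counting error only. Il5 summed to 5 counts in WT and 1 in Klk6+.

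Chains that pair with the members differed in direction. Of 12 other receptor genes 2 were higher and 4 lower (median -0.36). The 4 that fell were the oncostatin M and LIF partners Il6st (gp130; -1.02 ± 0.16, from 371 ± 36.2 to 186 ± 54.9 CPM) and Lifr (-1.59 ± 0.11), with Il6ra (-2.32 ± 0.20) and, named after its value was seen, Il2rb (-0.96 ± 0.19). Thus Osmr rose while Il6st, its partner in the oncostatin M receptor, fell. Il21r and Il9r, which pair with the common gamma chain, rose by 1.11 ± 0.26 and 1.35 ± 0.51 and were also named after their values were seen. Both were low: Il21r went from 0.685 ± 0.259 to 1.45 ± 0.158 CPM. Il9r went from 0.235 ± 0.133 to 0.589 ± 0.322 CPM, with overlap between the genotypes (adjusted p = 0.035).

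**Figure D5:**
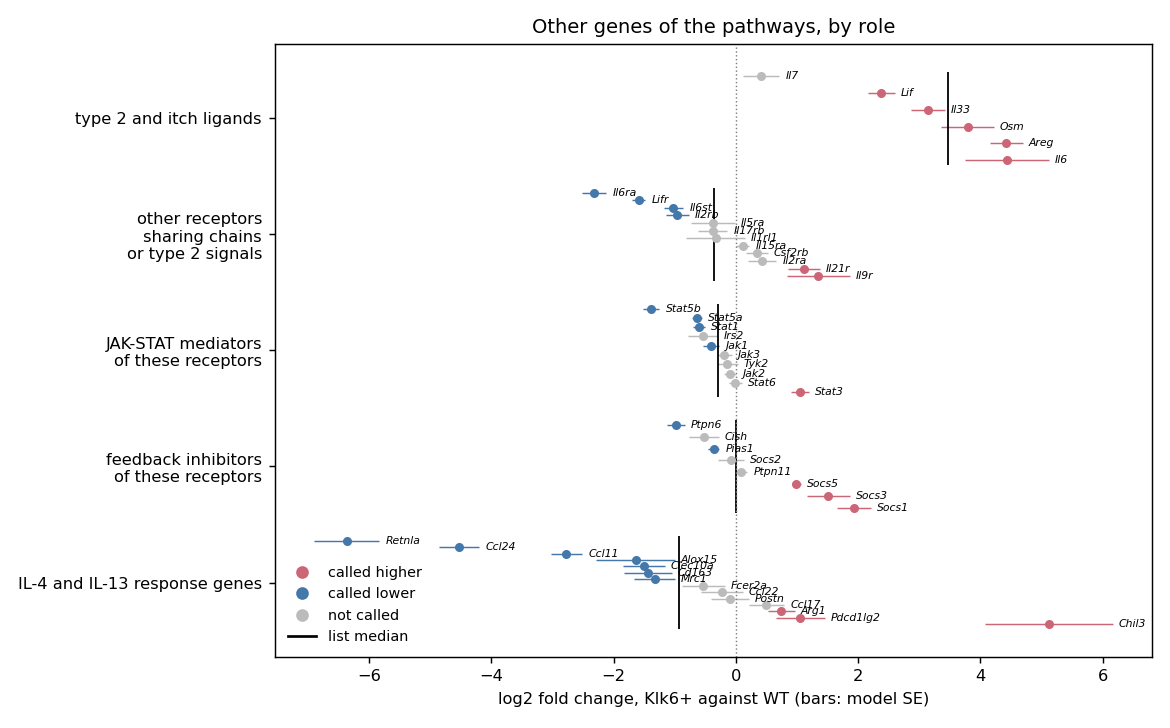
Log2 fold change of Klk6+ against WT (horizontal axis; bars are the model SE) for the tested genes of 5 lists of pathway genes; red is called higher, blue called lower, grey not called, and the black line is the list median. The ligand list lies to the right of 0 throughout, and the list of IL-4 and IL-13 response genes spans from Retnla (-6.36) to Chil3 (5.12).

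Downstream of the receptors, of 10 mediator genes (JAKs, STATs and the adaptor gene Irs2) 1 rose and 4 fell (median -0.30). Stat3, which Osmr and gp130 activate, rose by 1.05 ± 0.14 on the log2 scale, from 183 ± 36.4 to 379 ± 34.4 CPM (n = 5 each), while Stat5b and Stat5a, used by the interleukin 7 and TSLP receptors, fell (-1.38 ± 0.13 and -0.64 ± 0.08). Stat6, the main factor of the IL-4 and IL-13 receptors, was named after its value was seen: it stood at 132 ± 17.4 and 131 ± 18.5 CPM (n = 5 each), a log2 fold change of -0.01 ± 0.11. Of 8 feedback inhibitors 3 rose and 2 fell (median 0.01). Socs5 and Socs1, which restrain IL-4 and JAK signals, rose by 0.99 ± 0.07 and 1.93 ± 0.28, and the phosphatase gene Ptpn6 fell (-0.98 ± 0.15).

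Of 14 tested genes that IL-4 and IL-13 induce in other settings, 3 rose and 7 fell, with a median of -0.93. Retnla, a marker of IL-4-activated macrophages, fell (-6.36 ± 0.53), as did the eosinophil attractants Ccl24 (-4.53 ± 0.33) and Ccl11 (-2.77 ± 0.26). Those that rose, named after their values were seen, were Chil3 (5.12 ± 1.04), Arg1 (0.74 ± 0.22) and Pdcd1lg2 (1.05 ± 0.40). Chil3 varied widely, from 1.61 ± 2.63 CPM in WT to 59.2 ± 50.6 in Klk6+ (SD), without overlap. Arg1 and Pdcd1lg2 overlapped between the genotypes, and Pdcd1lg2 was low, from 0.343 ± 0.131 to 0.718 ± 0.349 CPM (adjusted p = 0.0348). The list holds the macrophage markers Mrc1 and Cd163 as well, and its summed level in WT was 1187 to 1726 CPM for males and 3768 to 5606 for females, against 657 to 1032 over all Klk6+ libraries. Retnla had the highest WT mean of the list, at 1282 ± 1312 CPM (SD, n = 5), so the WT sum depends largely on this gene. Fewer macrophages and a weaker response of each cannot be told apart in these libraries.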

How the data were processed

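For every gene symbol, each mouse's table, as deposited, lists a raw read count. Beside it stands the authors' FPKM, a level per transcript length and sequenced fragments. Per the submitters' processing notes, Cufflinks (2.2.1), HTSeq, SAMtools, TopHat2 and the builds GRCm38 and mm10 were used, with no roles stated. Annotation version, strand setting and treatment of reads with several matches were not given in the sources used here. Libraries were polyA-selected, made with a kit that does not mark strand and read as 50-cycle single ends, per the labels' protocols. Replicate numbers were given in accession order.

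Counts were analysed with edgeR 4.0.16 in R 4.3.3: filterByExpr (minimum count 10), trimmed-mean scaling, and quasi-likelihood F tests of genotype with sex as covariate. Genotype within each sex and the interaction came from a model of 4 genotype-by-sex means. Adjusted p is Benjamini-Hochberg over all 14861 genes tested, called below 0.05. Standard errors were taken as the fold change over the root of F. DESeq2 1.42.0, limma 3.58.1, other scalings and filters, FPKM, and leaving out libraries were alternatives. Ratios of chains used FPKM. Named were the 10 genes, up to 3 called genes of smallest p per pathway list (5 lists, beside 16 lists of cell markers), and the 3 profiles nearest to Il31ra and Osmr; genes outside this rule are marked as named after their values were seen. The genes and lists were chosen with earlier results of these data known. Gene positions are from GENCODE M21 (GRCm38), upstream sequences from RefSeq (GRCm38.p6).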

Additional observations from a re-analysis of the deposited data

Results flagged for a closer look

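Il13ra2 in WT 1, a male, stood at 1.61 CPM (70 counts), far above the other WT libraries for a group of 5, which lay at 0.748 to 0.963 CPM. Of 20 such checks, 2 per gene, this was the only 1 that stood out, and chance gives about 1 in 20. The log2 fold change of Il13ra2 was 2.84 without WT 1 in place of 2.64.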

How the results depend on the processing

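Of 219 values of the 10 genes under other settings of the genotype comparison, 198 kept their direction and their side of the threshold, 12 lost a call and 9 changed sign. The lost calls were those of Crlf2 (9), Il4 (2) and Il7r (1), and the changes of sign were all of Tslp, which was not called over both sexes in any setting: -0.35 with limma-voom, -0.22 with genotype alone, -0.26 and -0.17 with limma on log2(FPKM + 0.1) and log2(FPKM + 1), and -0.35 to 0.62 with 1 library left out. With log2(FPKM + 1), which shrinks low genes, the values were 0.89 for Il4, 1.34 for Il13ra2 and -1.70 for Il31ra. The interaction called 263 genes with DESeq2 and 0 to 4 with 1 library left out (4 without WT 3, 1 without Klk6+ 4). The sex term called 938 genes with DESeq2 and 4 to 704 with 1 library left out (347 without Klk6+ 3, 704 without Klk6+ 4). The cause was not tested. With 1 library left out the interaction changed sign for Il4ra (-0.61 to 0.36), Il13ra2 (-0.22 to 0.71), Osmr (-0.10 to 0.18) and Il31ra (-0.15 to 2.16), and the sex term for Il13ra1 (-0.08 to 0.08) and Il4 (-0.11 to 0.83). Where this leaves 1 female in an arm, that mouse is assumed to vary like the other groups. No paired analysis was possible because replicate numbers were given in accession order and pair no mice. Depth limits Il4, Il13 and the other cytokines with few counts.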

Other observations

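Markers of the cells that carry type 2 responses moved in different directions. Of 4 eosinophil markers 2 could be tested and both were lower in Klk6+ (median log2 fold change -2.29), with a summed level of 0.781 to 7.08 CPM in WT against 0.397 to 0.633 in Klk6+. Of 7 tested markers of T helper 2 cells and type 2 innate lymphoid cells 1 was higher and 1 lower (median -0.38), and their sums overlapped, at 76.0 to 167 CPM against 63.5 to 117. Neutrophil markers were higher in 6 of 7 tested, with sums of 47.8 to 73.6 CPM in WT against 5993 to 9810 in Klk6+. Most of the Klk6+ sum came from S100a8 and S100a9 (means of 3170 and 4736 CPM), which keratinocytes also make. Cxcr2 rose from a mean of 2.04 to 39.9 CPM, Camp, Ltf and Mpo stood at means of 2.62, 4.87 and 1.76 CPM in Klk6+, and Mmp9 was not called. Markers of adipocytes were lower in 5 of 5 and those of blood and lymph vessels in 5 of 5, melanocyte markers were higher in 3 of 4, and of 2 tested B-cell markers 1 was higher and 1 lower.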
